A study of Mus musculus with 4 samples.

Results

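The Notch pathway was followed here through 10 of its genes, the receptors *Notch1*, *Notch2* and *Notch3*, the ligands *Jag1*, *Jag2* and *Dll1*, and the target genes *Hes1*, *Hey1*, *Heyl* and *Nrarp*, chosen by symbol among the 52636 genes of a single cell RNA-sequencing table of mammary luminal cells. All 10 were found in the table. Luminal epithelial cells had been sorted from thoracic and abdominal glands of 6-week old C57BL/6N mice that were either *Erbb3* +/+;MMTV-Cre (WT) or *Erbb3* V943R/V943R;MMTV-Cre (mutant), homozygous for a knock-in of the V943R codon, so both genotypes carried the Cre transgene, which the MMTV promoter drives in mammary epithelium. Glands of 3 mice per genotype were pooled, which left 1 pool per genotype, and each pool was run as 2 droplet libraries, named A and B below without pairing any of them across genotypes. With 1 pool per genotype no test between genotypes was made, and the 95% intervals below cover counting error only.

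Notch receptors sit in the cell membrane and are bound by Jagged and Delta-like ligands on a neighbouring cell. Binding exposes the receptor to cleavage, and its freed intracellular domain enters the nucleus, joins the DNA-binding protein RBPJ and a Mastermind coactivator, and turns on genes of the Hes and Hey families, which encode transcriptional repressors, and *Nrarp*, which encodes a feedback inhibitor of the pathway. In the mammary gland the pathway is best known for its part in the commitment and upkeep of luminal cells.

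Levels are given as CPM, the UMIs of a gene (unique molecular identifiers, 1 for each mRNA molecule caught) per 1000000 UMIs of the same cells. The libraries held 6849 to 9627 cells and 30019745 to 38009351 UMIs each, and library pairs shared between 71 and 111 cell barcodes. The table labels clusters 1 and 2 as luminal progenitor (LP, 3181 WT and 3123 mutant cells), cluster 3 as luminal intermediate (LI, 1143 and 952 cells) and clusters 4 through 11 as mature luminal (ML, 14188 and 9612 cells), and 2 rare clusters, 12 and 13, stand outside these classes. In the 4 libraries, 6 progenitor markers summed to between 3774 and 4288 CPM in LP cells and between 71.6 and 77.5 CPM in ML cells, while 6 mature markers summed to between 8321 and 8997 CPM in ML cells and between 957 and 1048 CPM in LP cells. The LI cluster held both sets, and 49.4% of its cells were among the 6% of all cells with the highest doublet scores, against at most 9.58% in any other cluster. *Erbb3* itself stood at 60.9 and 63.3 CPM in the WT libraries and at 29.8 and 30.8 CPM in the mutant libraries, and the log2 ratio was -1.03 (-1.11 to -0.96). These 3' tags do not read the V943R codon, so they do not show which allele was expressed. Per the paper, the conditional allele before Cre ends in a human growth hormone 3' untranslated region, whose tags may not count as *Erbb3*. The part of this in the *Erbb3* ratio was not tested.

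Of the members, *Notch1*, *Notch2* and *Nrarp* were higher in LP than in ML cells and have an upstream sequence in the RefSeq table used, which matched 7 of the 10 members and holds none for *Hes1*, *Hey1* and *Heyl*. The 250 bases before the RefSeq start of each are printed because these genes were higher in the same class. They were not all high in the same clusters. *Notch2* was highest in ML cluster 4, at 67.8 CPM in WT, where *Notch1* stood at 26.4 CPM and *Nrarp* at 12.99 CPM. Capitals mark the E-box letters CACGTG, which bHLH repressors such as the Hes and Hey proteins can bind. The windows are chromosome 2 from 26503823 to 26504072 on the minus strand for *Notch1*, chromosome 3 from 98013288 to 98013537 on the plus strand for *Notch2* and chromosome 2 from 25180508 to 25180757 on the plus strand for *Nrarp*, in GRCm38.p6. The RefSeq start used for *Notch1* lies inside the GENCODE gene given below, and the *Notch1* and *Notch2* windows hold 2 and 11 bases of annotated exons.
Notch1: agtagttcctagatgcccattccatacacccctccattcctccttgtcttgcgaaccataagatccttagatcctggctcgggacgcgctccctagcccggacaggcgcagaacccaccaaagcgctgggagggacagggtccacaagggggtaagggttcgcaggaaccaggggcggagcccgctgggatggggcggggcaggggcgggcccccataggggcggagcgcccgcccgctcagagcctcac
Notch2: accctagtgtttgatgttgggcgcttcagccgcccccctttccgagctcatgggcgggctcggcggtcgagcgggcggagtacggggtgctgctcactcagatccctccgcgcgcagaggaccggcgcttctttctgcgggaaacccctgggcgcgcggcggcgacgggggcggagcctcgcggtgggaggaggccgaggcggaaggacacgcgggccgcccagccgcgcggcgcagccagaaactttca
Nrarp: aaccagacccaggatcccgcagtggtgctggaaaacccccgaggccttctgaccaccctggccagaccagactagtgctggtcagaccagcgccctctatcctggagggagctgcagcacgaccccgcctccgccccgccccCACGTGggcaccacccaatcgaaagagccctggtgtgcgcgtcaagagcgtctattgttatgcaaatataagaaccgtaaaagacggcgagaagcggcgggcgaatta
The E-box is found once, upstream of *Nrarp*, and 6.02% of 32851 such windows hold it. The core letters of the RBPJ site, TGGGAA, searched on both strands, were in 0 of the 8 windows of these 7 members (*Dll1* has a pair), against 21.6% of all windows. All 250 bases of the *Jag2* window and of both *Dll1* windows are annotated exon, as are 124 bases of the *Jag1* window. Nothing about binding follows from a match or its absence in these windows.

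The clearest pattern among the members was by luminal class. Receptors *Notch1* and *Notch2* and targets *Hey1* and *Nrarp* were higher in LP than in ML cells, and the ligand *Jag1* was higher in ML than in LP cells, in the WT and in the mutant pool. A gene was called when its levels differed by a fold of 2 or more, the higher class held at least 50 UMIs and the libraries of the classes did not overlap. By this rule 4 members were higher in LP and 1 was lower in each pool, of 7 members with enough UMIs. Over all genes tested, 13% were called higher and 11.4% lower in LP cells in WT, and 14% and 11% in the mutant. The median log2 ratio of the 7 members was 1.43 in WT and 1.20 in the mutant, beside 0.09 and 0.14 over all genes tested. The clusters behind the classes had been drawn from the same expression values, so these are descriptions and not tests.

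**Figure D1:**
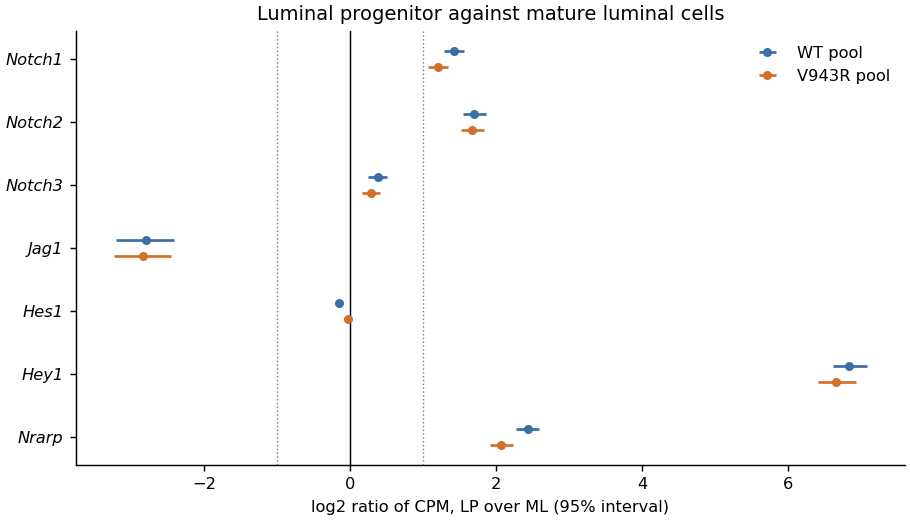
Log2 ratio of CPM, LP over ML (horizontal axis), for the 7 members with at least 50 UMIs, in the WT pool (blue) and the mutant pool (orange); bars are 95% intervals of counting error and dotted lines mark a fold of 2. *Hey1* lies far to the right at 6.84 in WT, *Jag1* to the left at -2.80, and *Notch3* and *Hes1* lie between the dotted lines.

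Among the receptors, *Notch1* (ENSMUSG00000026923, chromosome 2 from 26457903 to 26516663, minus strand, GRCm38) stood at 68.1 and 78.5 CPM in LP cells of the WT libraries and at 27.1 and 27.6 CPM in ML cells. The log2 ratio of LP over ML was 1.43 (1.29 to 1.56), and 1.20 (1.06 to 1.34) in mutant cells. LI cells, at 58.5 and 59.7 CPM, lay between the 2 classes and 1.11 (0.95 to 1.26) above ML cells on the log2 scale. By cluster, WT levels ran from 77.3 CPM in cluster 1, 61.5 in cluster 2 and 59.1 in cluster 3 down to 35.2 in cluster 7 and 18.5 in cluster 10. In this order clusters 1 and 2 were not apart, nor were clusters 2 and 3, as their intervals or libraries overlapped, whereas cluster 3 was apart from cluster 7, the next below it. Exons of *Notch1* overlap those of 0610009E02Rik and Gm13568 on the opposite strand, which hold 385 and 194 UMIs of their own, and whether the counting used strand is not given in the sources used here.

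*Notch2* (ENSMUSG00000027878, chromosome 3 from 98013527 to 98150361, plus strand) had a different spread over the ML clusters. Its levels in LP cells were 61.2 and 56.9 CPM in WT and 62.8 and 57.7 CPM in the mutant, against 18.0 and 18.2 CPM and 19.8 and 17.9 CPM in ML cells, log2 ratios of 1.70 (1.55 to 1.86) and 1.67 (1.51 to 1.83). One ML cluster did not share the low level of its class. Cluster 4 stood at 70.2 and 65.9 CPM in the WT libraries and at 72.0 and 64.6 CPM in the mutant libraries, not apart from cluster 1 at 67.7 and 62.7 CPM in WT. Clusters 7, 8, 10 and 11 lay between 6.15 and 8.19 CPM in WT. LI cells, at 28.7 and 28.9 CPM, were lower than LP cells by a log2 ratio of -1.03 (-1.27 to -0.80). A gene on the same strand, Gm42820, shares exon sequence with *Notch2* and holds 307 UMIs, so some reads could have been assigned to either.

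*Notch3* (ENSMUSG00000038146, chromosome 17 from 32120820 to 32166852, minus strand) was spread more evenly. In WT it stood at 62.9 and 66.0 CPM in LP, 74.7 and 69.1 in LI and 50.9 and 48.8 in ML cells. LP over ML gave a log2 ratio of 0.37 (0.24 to 0.51), and of 0.28 (0.15 to 0.41) in mutant cells, under the fold required in both, and with TMM factors in place of totals it was 0.07 and -0.02, so its direction in the mutant turned. Levels over WT clusters 1 through 11 ran from 43.4 CPM in cluster 11 to 71.9 CPM in cluster 3, and no neighbours in this order were apart.

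Of the ligands, *Jag1* (ENSMUSG00000027276, chromosome 2 from 137081456 to 137116644, minus strand) was the one with more than 50 UMIs. LP cells held 24 and 30 UMIs, or 5.95 and 6.69 CPM, in the WT libraries, and ML cells 42.5 and 45.6 CPM. LP cells were lower than ML cells by a log2 ratio of -2.80 (-3.21 to -2.41), and of -2.84 (-3.24 to -2.46) in mutant cells. With the top 6% of doublet scores removed these ratios became -3.75 and -3.51. After the thinning described below for *Hey1*, a *Jag1* UMI was found in 0.38% of WT LP cells (0.20% to 0.66%). In the immune cluster 13 it was found in 2 of 83 WT cells, or 2.41% (0.29% to 8.43%). In the mutant the shares were 0.75% of LP cells and 0 of 77 cells of cluster 13. Cluster 13 has too few cells to tell the shares in LP cells from background, and they are not read as expression. It also held UMIs of the mature marker *Prlr*, at 759 CPM over both pools. The *Jag1* ratios of LP over ML and LI over LP are thus of the UMIs counted, background included. *Jag1* was highest in ML cluster 4, at 112.8 and 131.0 CPM in WT and 131.4 and 125.0 CPM in the mutant, apart from cluster 6 at 44.9 CPM, the next in order in WT. Cluster 4 made up 11.7% of WT cells and held 35.1% of their *Jag1* UMIs. It was also the ML cluster with the LP-like level of *Notch2*, so the 2 transcripts were high in the same cluster. LI cells stood at 32.7 and 28.3 CPM, above LP cells by a log2 ratio of 2.27 (1.84 to 2.73), or 3.37 without the cells of highest doublet scores.

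The other ligands were close to the limit of detection. *Jag2* (ENSMUSG00000002799, chromosome 12 from 112907819 to 112929776, minus strand) gave 20 UMIs in the WT pool and 22 in the mutant pool, of which 15 and 20 came from ML cells. *Dll1* (ENSMUSG00000014773, chromosome 17 from 15367354 to 15376872, minus strand) gave 21 and 16 UMIs, of which 12 and 10 came from LP cells and 1 and 2 from ML cells. In CPM, *Dll1* stood at 0.99 and 1.78 in LP cells of the WT libraries and at 1.52 and 0.85 in those of the mutant libraries. These counts were under the 50 UMIs required and no class was called for either gene.

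Of the targets, *Hey1* (ENSMUSG00000040289, chromosome 3 from 8663359 to 8667256, minus strand) followed the LP label most closely. It stood at 290.6 and 347.2 CPM in LP cells, 112.4 and 117.7 CPM in LI cells and 2.39 and 3.17 CPM in ML cells of the WT libraries. LP cells were above ML cells by a log2 ratio of 6.84 (6.61 to 7.08), and of 6.66 (6.41 to 6.92) in mutant cells. LP cells were 17.1% of WT cells and held 72.9% of *Hey1* UMIs. Within LP cells, the cycling cluster 2 stood at 166.4 and 180.4 CPM, under cluster 1 at 332.0 and 393.6 CPM, and cluster 3 followed at 115.0 CPM, each apart from the next. No ML cluster exceeded 4.28 CPM in WT. With each cell thinned to 1000 UMIs, a *Hey1* UMI was found in 25.2% of LP cells (23.6% to 26.7%), 10.2% of LI cells (8.47% to 12.1%) and 0.28% of ML cells (0.20% to 0.38%) in WT, against 42.9%, 40.4% and 1.09% before thinning, when the median WT cell held 2018, 5620 and 3508 UMIs in these classes. In cluster 13, where the immune marker *Ptprc* was detected and the median WT cell held 1899 UMIs, 0 of 83 thinned WT cells had one, which allows a share of up to 3.61% by the limit of 3 counts (4.35% by the exact interval), and 2.41% of cells had one before thinning. With 83 cells that limit is too wide to tell the share in ML cells from background. Cluster 13 also held UMIs of the progenitor markers *Kit* and *Csn3*, at 43.7 and 77.5 CPM over both pools. The share in ML cells is not read as expression. The ratios of LP over ML and LI over ML for *Hey1* are thus of the UMIs counted, background included.

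*Nrarp* (ENSMUSG00000078202, chromosome 2 from 25180758 to 25183339, plus strand) stood at 68.4 and 69.1 CPM in LP, 32.4 and 31.6 in LI and 13.4 and 12.1 CPM in ML cells of the WT libraries. LP was above ML by a log2 ratio of 2.43 (2.27 to 2.59), and of 2.07 (1.91 to 2.23) in mutant cells. Unlike *Hey1*, its highest level was in the cycling LP cluster 2, at 75.3 and 84.0 CPM against 66.1 and 65.0 CPM in cluster 1, although these neighbours were not apart. Among ML clusters the cycling clusters 5 and 6, at 26.3 and 23.7 CPM, were the highest, and cluster 6 was apart from cluster 7 at 14.7 CPM. LI cells were lower than LP cells by a log2 ratio of -1.10 (-1.33 to -0.88).

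*Hes1* (ENSMUSG00000022528, chromosome 16 from 30064384 to 30067796, plus strand) did not follow the progenitor pattern of *Hey1* and *Nrarp*. In the WT libraries it stood at 533.9 and 511.4 CPM in LP, 557.3 and 524.9 in LI and 596.2 and 566.7 CPM in ML cells, and LP over ML was -0.15 on the log2 scale (-0.20 to -0.11). In the mutant this ratio was -0.04 (-0.09 to 0.01), and without cycling clusters it was 0.08. One ML cluster stood above the rest. Cluster 8 reached 982.0 and 885.8 CPM in WT and 712.5 and 776.3 CPM in the mutant, apart from cluster 6, the next in WT at 582.7 CPM. The last target, *Heyl* (ENSMUSG00000032744, chromosome 4 from 123233556 to 123249875, plus strand), gave 20 UMIs in WT and 15 in the mutant, of which 10 and 9 came from LP cells, too few for a call.

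**Figure D2:**
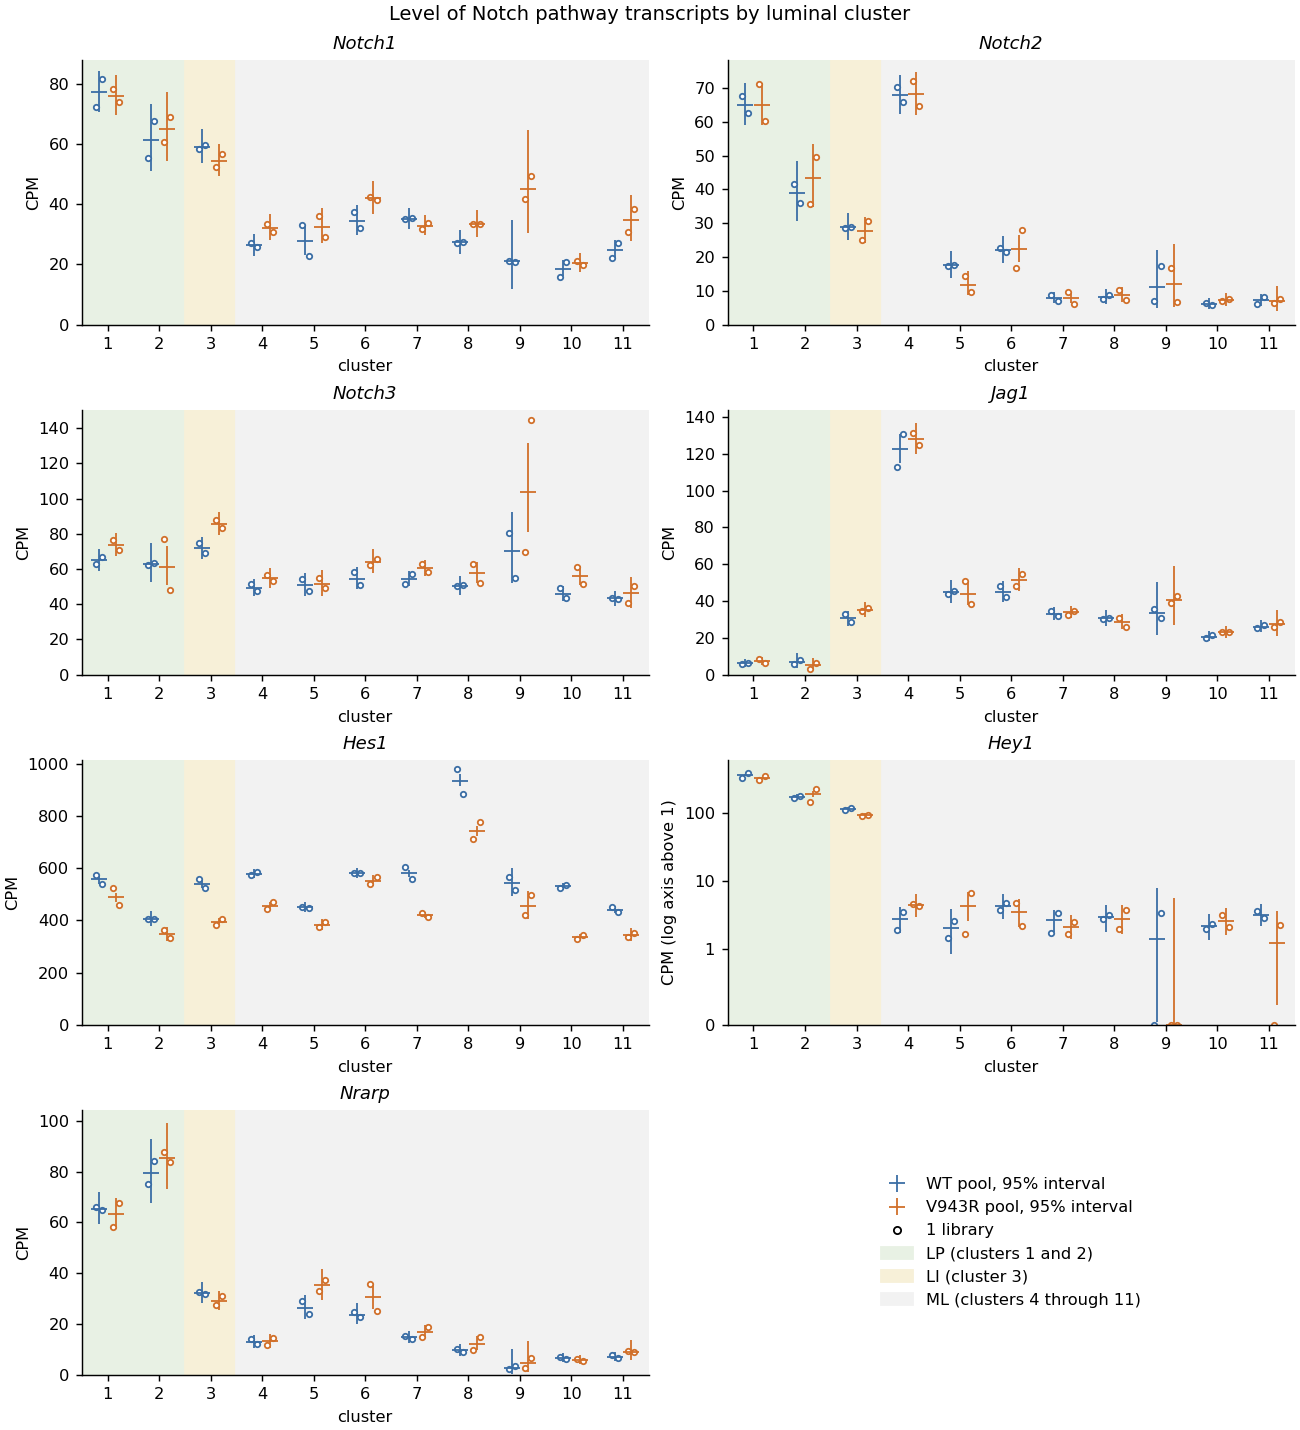
CPM (vertical axis) of the 7 members with enough UMIs in clusters 1 through 11 (horizontal axis) for the WT pool (blue) and the mutant pool (orange); dashes with bars are the pools with 95% intervals, open circles the libraries, and shading the LP, LI and ML classes. *Notch1* and *Hey1* are high in clusters 1 to 3 and *Nrarp* in clusters 1 and 2, *Notch2* and *Jag1* share a high level in cluster 4, and *Hes1* is highest in cluster 8; the *Hey1* axis is logarithmic above 1 CPM.

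Set side by side for WT, LI cells were above ML cells in 3 of 7 members (*Notch1*, *Hey1* and *Nrarp*) and below in 0, where 3.98% and 2.29% of genes tested were called. Against LP cells, LI cells were lower in 3 of 7 (*Notch2*, *Hey1* and *Nrarp*) and higher in 1 (*Jag1*), where 9.78% of genes were called lower and 5.57% higher. TMM factors shifted every log2 ratio of LP over ML by -0.30 in WT and -0.31 in the mutant, of LI over ML by -0.11 and of LI over LP by 0.13. With this shift *Notch1* fell under a fold of 2 in LP over ML of the mutant (0.89) and in LI over ML of WT (0.995), and *Notch2* (-0.90) and *Nrarp* (-0.97) did so in LI against LP, while the directions stayed.

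The genes whose WT level over clusters 1 through 11 was most like that of a member were taken by Pearson's r of log2(CPM + 1), given with no test since the 11 points share libraries and the clusters were drawn from these values. For *Hey1* they were *Cryab* (r = 0.998 in WT and 0.937 in the mutant), *Ptx3* (0.997 and 0.971) and *Kit* (0.997 and 0.971), the receptor that marks progenitors. For *Jag1* they were *Nr2f2*, an orphan nuclear receptor (0.937 and 0.794), *Tbx3os1* (0.913 and 0.900) and *Cavin1*, a caveolar coat protein (0.910 and 0.896). For *Notch2* they were *Spry2*, an inhibitor of receptor tyrosine kinase signaling (0.979 and 0.911), *Lyrm4* (0.970 and 0.934) and *Med1*, a subunit of the Mediator complex (0.958 and 0.742). *Mgst1*, *Cited2* and *Proser2* were nearest to *Notch1* (WT 0.968 to 0.976, mutant 0.852 to 0.899), and *Wdr36*, *Rbms1* and *Ctnnbip1* to *Nrarp* (0.980 to 0.985 and 0.792 to 0.962). For *Notch3* they were *Adcy6* (0.934 and 0.901), *Epc1* (0.930 and 0.429) and *Myo9b* (0.929 and 0.542). Among the genes nearest to *Hes1*, *Camsap2* had r = 0.894 in WT and 0.282 in the mutant and *Ggct* 0.809 and 0.279. All these genes were chosen for their r in WT, so a lower r in the mutant follows from the choice and is not read as a difference between pools. Among the members, *Notch1* and *Hey1* had r = 0.941 in WT and 0.771 in the mutant, and *Jag1* and *Hey1* had -0.724 and -0.672.

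Cells in which 1 member was detected were also compared with the other cells of the same cluster, each thinned to 1000 UMIs. In WT cluster 1, a *Notch1* UMI was found in 10.2% of 728 cells with a *Hey1* UMI (8.07% to 12.6%) and in 7.05% of 1944 cells without (5.95% to 8.28%), and in the mutant in 8.74% (6.66% to 11.2%) and 7.26% (6.13% to 8.52%). For *Notch2* the order was the other way, at 6.04% with and 7.15% without a *Hey1* UMI in WT and 4.29% and 6.57% in the mutant. In clusters 2 and 3 at most 5 cells of a pool held UMIs of both *Notch1* and *Hey1*, too few to compare. Since cells of 1 pool are not replicates, these shares are a description.

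A wider list of 68 pathway genes, all in the table, was read by the same rule. In LP against ML cells 8 were higher and 8 lower of 54 tested in WT, and 6 and 6 of 52 in the mutant, near the shares over all genes given above (13% and 11.4% in WT, 14% and 11% in the mutant), so the counts show nothing particular to the list. Of 10 proteases of the pathway 4 were lower in WT and 0 higher, while of 7 genes of the nuclear complex 1 was higher and 0 lower. The genes called in both pools are given by their values. *Maml2*, a Mastermind coactivator, was higher in LP cells (27.6 against 4.33 CPM in WT, log2 2.67), as were the corepressor *Tle4* (28.6 against 5.97, log2 2.26), the ubiquitin ligase subunit *Fbxw7*, which turns over the receptor's intracellular domain (63.5 against 21.5, log2 1.56), and the ligase *Mib2*, which acts on ligands (39.9 against 17.5, log2 1.19), which the shift of TMM factors takes under a fold of 2 in both pools. The targets *Myc* (45.2 against 14.6 CPM, log2 1.63) and *Bcl2* (138.8 against 2.04 CPM, log2 6.09) were also higher. Lower in LP cells were *Lfng*, a glycosyltransferase that modifies the receptors (7.51 against 38.9 CPM, log2 -2.37), *Cdkn1a* (75.1 against 254.7, log2 -1.76), the receptor-cleaving protease *Adam10* (49.6 against 147.8, log2 -1.57) and the gamma-secretase genes *Psen2* (19.2 against 53.7, log2 -1.48) and *Aph1c* (0.94 against 2.59, log2 -1.46). *Aph1b* and *Aph1c* are near copies and reads may have been split between them.

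Between the genotypes, over all cells and by class, no member met the rule of a fold of 1.5 with at least 50 UMIs and libraries that did not overlap. The count was 0 of 7 tested members in either direction over all cells and in LP, LI and ML cells. Over all genes the rule called 3.24% higher and 1.18% lower in the mutant over all cells, 2.23% and 0.606% in LP, 2.83% and 1.03% in LI and 2.88% and 1.58% in ML cells. For *Notch1*, *Notch2* and *Nrarp* in LP cells the log2 ratios of mutant over WT were 0.00 (-0.16 to 0.16), 0.03 (-0.15 to 0.21) and -0.01 (-0.17 to 0.16), intervals that lie inside a fold of 1.5.

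Below that fold, *Hes1* was the 1 member whose libraries did not overlap between pools in each of LP, LI and ML cells. Over all cells it stood at 583.8 and 554.1 CPM in the WT libraries and at 455.0 and 456.1 CPM in the mutant libraries, which is -0.32 (-0.34 to -0.30) on the log2 scale. Both mutant libraries lay below both WT libraries. In LP cells the mutant libraries stood at 487.7 and 429.3 CPM, or -0.20 (-0.26 to -0.13) against WT. In LI cells they stood at 383.1 and 404.5 CPM (-0.46, -0.53 to -0.39) and in ML cells at 464.0 and 471.2 CPM (-0.31, -0.34 to -0.29), again below both WT libraries. Of the genes tested, 10.7% in LP, 2.77% in LI and 6.42% in ML cells had a ratio as low or lower. In LP cells the value depended on the library, at -0.10 without mutant library B and -0.28 without mutant library A.

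The mutant libraries lay below the WT libraries for *Hes1* in 11 of 11 luminal clusters, while 22.5% of all pairs of gene and cluster did so and 21.1% lay the other way. The log2 ratio ran from -0.66 (-0.72 to -0.59) in cluster 10, at 336.8 against 530.8 CPM, which is past a fold of 1.5, to -0.08 (-0.15 to 0.00) in cluster 6. Transcripts of 8 genes induced by tissue dissociation (*Fos*, *Jun*, *Junb*, *Egr1*, *Atf3*, *Hspa1a*, *Hspa1b* and *Dnajb1*) were also lower in sum in the mutant in each class. They summed to 22192 and 23050 CPM in WT and 17858 and 18207 CPM in mutant LP cells, 19859 and 21121 against 15025 and 15930 CPM in LI cells, and 17758 and 18431 against 14598 and 15314 CPM in ML cells, and 7 of the 8 were lower in the mutant in each class. By cluster they stood at 17624 CPM in WT and 15312 CPM in the mutant in cluster 10, where the *Hes1* ratio was lowest. In cluster 6, where it was highest, they stood at 13934 and 12535 CPM, and in cluster 1 (*Hes1* at -0.19) at 24825 and 19787 CPM. In cluster 3 (*Hes1* at -0.46) the dissociation transcripts stood at 20479 and 15466 CPM. When luminal cells were put into 5 bins of about equal number by the share of these transcripts, a split added after seeing the data, *Hes1* was lower in the mutant in each bin, with log2 ratios between -0.36 (-0.41 to -0.31) in the lowest bin and -0.24 (-0.30 to -0.17) in the highest. Within each pool *Hes1* was higher in the highest bin than in the lowest. It stood at 602.3 against 490.7 CPM in WT and at 511.6 against 381.7 CPM in the mutant. The lowest bin held 2727 WT and 3712 mutant cells, and the highest 4539 and 1901. The bins hold 1901 to 4539 cells per genotype, mix the luminal clusters and come from 1 pool per genotype. The bins are a description, and the part of the dissociation genes in the *Hes1* difference was not tested.

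**Figure D3:**
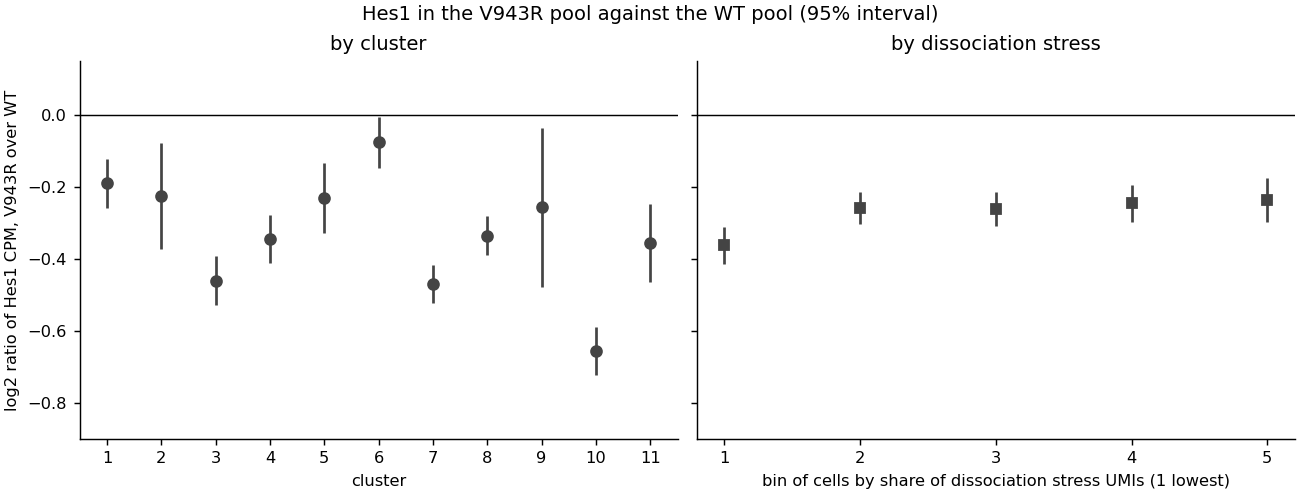
Log2 ratio of *Hes1* CPM, mutant over WT (vertical axis), in clusters 1 through 11 (left) and in 5 bins of luminal cells ordered by the share of UMIs of 8 dissociation genes (right); bars are 95% intervals of counting error. All points lie below 0, from -0.66 in cluster 10 to -0.08 in cluster 6, and between -0.36 and -0.24 in the bins.

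*Notch3* lay the other way. In LI cells it stood at 74.7 and 69.1 CPM in WT and 88.1 and 83.1 CPM in the mutant (0.25, 0.09 to 0.42), and in ML cells at 50.9 and 48.8 against 59.9 and 56.2 CPM (0.22, 0.14 to 0.30), with both mutant libraries above both WT libraries. In LP cells the libraries overlapped, at 62.9 and 66.0 CPM in WT against 76.7 and 65.6 CPM (0.13, -0.04 to 0.30). By cluster, both mutant libraries were above both WT libraries in 7 of 11 clusters and below in 0, beside 21.1% and 22.5% of all pairs of gene and cluster. The clusters share the same libraries, and in clusters 1, 4, 7 and 8, among those above, the intervals included 0.

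For the other members the values varied by class, with no test of the difference between classes. *Hey1* in LI cells stood at 112.4 and 117.7 CPM in WT and 91.9 and 95 CPM in the mutant, lower by a log2 ratio of -0.30 (-0.45 to -0.16) with no overlap of libraries. The 6 progenitor markers summed to 1214.5 and 1323.2 CPM in WT and 1000.6 and 1066.8 CPM in mutant LI cells. Of these 6, 3 were lower and 0 higher without overlap. In LP cells they summed to 4006 and 4288 against 3774 and 3871 CPM, with 4 lower and 1 higher without overlap. *Kit* rose there, from 218.5 CPM in the WT pool to 263.2 CPM in the mutant pool, and *Csn3* fell from 2210 to 1937 CPM. The part of these markers in the *Hey1* values was not tested. In LP cells, at 290.6 and 347.2 against 269.8 and 319.5 CPM, the libraries overlapped for *Hey1* (-0.11, -0.19 to -0.03), and the value was 0.03 without WT library B. Over all cells the ratio of *Hey1* had the other sign, 0.11 (0.04 to 0.17), and was -0.04 without mutant library B. LP cells held 11.7% of all UMIs in WT and 13.9% in the mutant, and with the clusters given the same weights in both pools the ratio over all cells was -0.14. *Nrarp* in ML cells stood at 13.4 and 12.1 CPM in WT and 15.7 and 16.9 CPM in the mutant (0.36, 0.21 to 0.51), or 0.22 with equal cluster weights. *Notch1* in ML cells stood at 27.1 and 27.6 against 32.2 and 31.8 CPM (0.23, 0.12 to 0.33) and *Jag1* at 42.5 and 45.6 against 48.7 and 46.9 CPM (0.12, 0.03 to 0.20), above WT in both libraries. Cluster 11 held 2863 of 14188 WT and 670 of 9612 mutant ML cells, and with equal cluster weights *Jag1* was at 0.07 and *Notch1* at 0.23. Of the ML clusters with enough UMIs, *Jag1* was above WT without overlap in clusters 6 and 10 and overlapped in 4, 5, 7, 8 and 11. *Notch2* in ML cells overlapped between pools (0.06, -0.08 to 0.19).

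In ML cells 4 of the 7 members thus lay above WT in both mutant libraries and 1 lay below, where 27.7% and 26.8% of all genes tested did so. In LI cells 2 lay above and 4 below, beside 23.2% and 22.5% of all genes. In LP cells 0 lay above and 1, *Hes1*, below, beside 23.1% and 18.1%. The median of the members in LP, LI and ML cells was 0.00, -0.12 and 0.12, and that of all genes tested 0.02, 0.00 and 0.00. In LI cells the 5 proliferation markers summed to 98.1 and 78.7 CPM in WT and 123.3 and 137.8 CPM in the mutant, and in ML cells to 258.3 and 268.7 CPM in WT and 299.4 and 282.3 CPM in the mutant. The 6 basal markers summed to 30.8 and 31.9 CPM in WT and 40.4 and 40.2 CPM in the mutant in LI cells. Of these 6, 1 was lower and 1 higher without overlap. Most of the rise was in *Acta2*, at 22.16 CPM in the mutant pool against 12.03 CPM. *Myh11* and *Trp63* were also higher in the mutant pool, and *Krt5*, *Krt14* and *Oxtr* were lower. The mature markers summed to 5879 and 5843 CPM in WT and 6079 and 6244 CPM in mutant LI cells. Of these 6, 2 were lower and 2 higher without overlap. *Areg* was higher in the mutant pool (3047 against 2421 CPM) and *Cited1* lower (694 against 989 CPM). The 5 fibroblast markers summed to 15 and 13.8 CPM in WT and 5.43 and 4.38 CPM in mutant ML cells. Of this sum *Dcn* alone held 13.56 CPM in the WT pool and 3.94 CPM in the mutant pool. *Col1a2* was also lower in the mutant pool, and *Col1a1*, *Col3a1* and *Pdgfra* were slightly higher. The part of these markers in the LI and ML values, that of *Nrarp* included, was not tested.

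**Figure D4:**
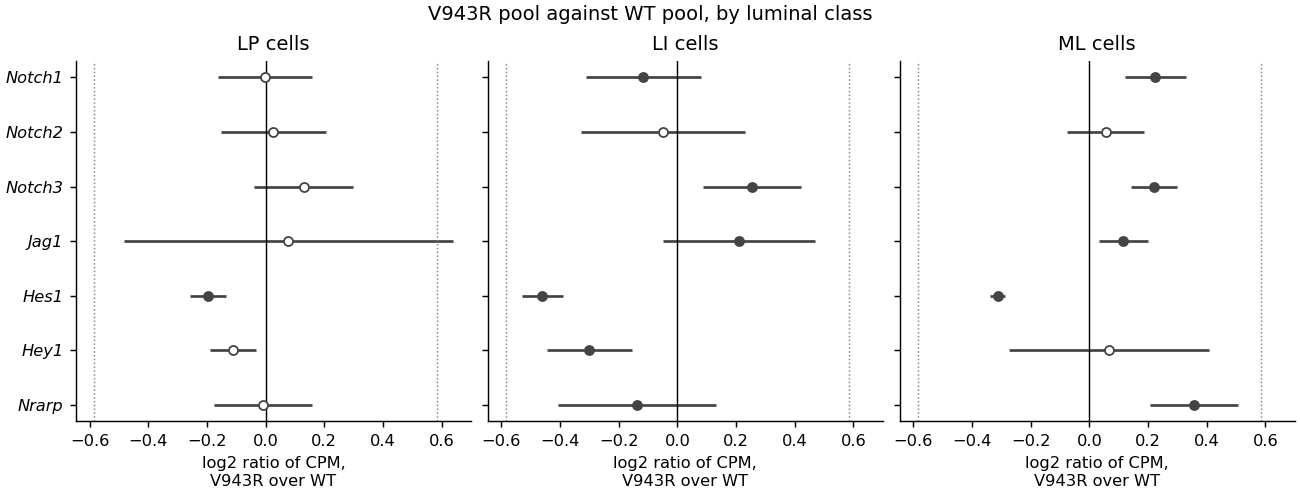
Log2 ratio of CPM, mutant over WT (horizontal axis), of 7 members in LP, LI and ML cells; bars are 95% intervals of counting error, filled points mark libraries that do not overlap between pools and dotted lines a fold of 1.5. Points lie inside the dotted lines in all classes, *Hes1* is on the left in each, and *Notch1* and *Nrarp* are left of 0 in LI and right of 0 in ML cells.

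Of the 68 further pathway genes, 0 met the rule of a fold of 1.5 over all cells and in LP and ML cells, of 57, 50 and 55 tested, and 1 of 50 met it in LI cells, where 2.83% of all genes were called higher. This was *Aph1a*, a subunit of gamma-secretase, at 9.46 CPM in WT and 14.9 CPM in the mutant, a log2 ratio of 0.66 (0.22 to 1.11).

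Outside the luminal classes, cluster 12 held 43 WT and 33 mutant cells with the endothelial marker *Pecam1* at 280.2 CPM and the fibroblast marker *Col1a1* at 2131 CPM over both pools. *Jag1* gave 10 UMIs in each pool there, or 89.1 CPM (42.7 to 163.9) in WT, *Notch2* 11 and 4 UMIs and *Dll1* 3 UMIs in WT, levels that so few cells leave wide.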

How the data were processed

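Luminal cells of 1 pool of 3 mice per genotype were measured as 2 libraries each (10x Chromium 3' v2). The authors deposited 1 signal value per gene and cell, the UMIs of a cell multiplied by 1 factor, with the library, cluster and class of each cell; per the submitters' processing notes GSNAP, bcl2fastq 2.20, CASAVA 1.8 and GRCm38 were used, and clusters came from Seurat in Partek Flow at a resolution of 0.6. Cell filters and doublet removal by the authors are not given in the sources used here.

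Each value was divided by the smallest value above 0 of its cell, which gave whole numbers within 0.02 for 100% of 60853305 nonzero values, used as UMIs. No cell was left out. CPM was taken from sums of UMIs over the cells of a library, class or cluster, with a depth of 30019745 to 38009351 UMIs per library. No count model was fitted, since the deposited unit is a signal, and no test was made, since there is 1 pool per genotype and classes were drawn from the same values. Intervals are exact Poisson (levels), exact conditional binomial (log2 ratios) and exact Clopper-Pearson (shares), all at 95%. Neighbours in the order of clusters were called apart where intervals did not overlap and the libraries kept the order. The members, the pathway and marker lists, the rules and the alternatives were chosen with earlier results of these data known. Named genes were the members, pathway genes called in LP against ML cells in both pools or between genotypes in a class, and the 3 genes most alike for members with at least 200 UMIs in WT, among genes with at least 500. One gene that this rule names is not reported here.

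Cycling clusters 2, 5 and 6 follow the study's description. Alternatives were leaving out each library, TMM factors, means over cells, removal of the 10% shallowest cells or of the top 6% by scrublet score (scrublet itself called 1 doublet), a minimum of 20 UMIs, other folds, no rule on libraries, equal cluster weights, no cycling clusters and thinning to 1000 UMIs. Gene positions are from GENCODE on GRCm38, which matched 52403 genes and all 10 members, and upstream sequences from RefSeq. Scripts ran in Python 3.11.15 (scanpy 1.11.5, scipy 1.17.1, matplotlib 3.10.9, pandas 2.3.3 and numpy 2.4.6) with a seed of 1.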

Additional observations from a re-analysis of the deposited data

Results flagged for a closer look

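For *Notch1* and *Nrarp* the mutant libraries lay on opposite sides of the WT libraries in LI and ML cells. *Notch1* had a log2 ratio of mutant over WT of -0.12 in LI cells (52.5 and 56.6 CPM against 58.5 and 59.7) and 0.23 in ML cells (32.2 and 31.8 against 27.1 and 27.6). *Nrarp* had -0.14 in LI cells (27.4 and 31.0 CPM against 32.4 and 31.6) and 0.36 in ML cells (15.7 and 16.9 against 13.4 and 12.1). The intervals in LI cells, -0.31 to 0.08 for *Notch1* and -0.41 to 0.13 for *Nrarp*, include 0, and with 1 pool per genotype the difference between the classes was not tested.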

How the results depend on the processing

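No paired analysis was possible because the libraries in the table carry no replicate numbers and the results come from no test. Of 155 counts of members recomputed under an alternative, 152 stayed within 1.5 times the count reported, and the exceptions were 3. With a minimum of 20 UMIs, 2 members were lower in LP than in ML cells of the mutant (*Jag1* and *Jag2*) and 1 was higher in the mutant in ML cells (*Jag2*), and with TMM factors 1 member was lower in LI than in LP cells in WT, in place of 3. Leaving out a library moved no count by more than that. Of 614 log2 ratios of members recomputed, 538 stayed inside the interval of the value reported, 76 left it, and 0 of the called ones changed direction. Ratios of *Hes1* between genotypes stayed below 0 under the alternatives run, from -0.50 to -0.42 in LI cells, -0.28 to -0.10 in LP cells and -0.39 to -0.28 in ML cells.

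One pool per genotype gives no measure of the spread between mice. *Jag2*, *Dll1* and *Heyl*, with 15 to 22 UMIs per pool, were too few for a comparison. Classes differ in UMIs per cell, so shares of cells are given after thinning too. LI cells carry high doublet scores. Counting error is the sole error in the intervals.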
